A study of Mus musculus with 20 samples.

Results

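The genes described here are 33 mouse genes of fatty acid oxidation, ketone body metabolism and the response to the nuclear receptor PPAR alpha, measured in the colon of mice that lack Pcca in the gut epithelium or in the liver. Members were taken by gene name from a written list. All 33 were found in both count tables, of 56748 genes listed in the chow table and 31184 in the high fat diet (HFD) table. They divide into 4 genes of fatty acid entry into mitochondria, 11 of the mitochondrial beta-oxidation spiral, 3 of electron transfer, 4 of the peroxisome, 2 of ketone body metabolism, 2 transcription regulators and 7 other targets of PPAR alpha. The 5 groups held 4 colons each.

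Chow ff mice carried floxed Pcca (Pcca ff) and served as littermate controls. Chow Vill mice were Pcca knockouts through Villin-Cre, which is active in intestinal epithelium, and Chow Alb mice were liver-specific knockouts made with Albumin-Cre. These 3 groups ate standard chow and were killed at 9 weeks of age. HFD ff and HFD Vill mice were males given chow until 6 weeks of age and then a diet with 60% of its energy as fat for 12 weeks, and were killed at 18 weeks. Every mouse was fasted for 4 hours first. Whole flushed colon pieces were extracted, so muscle, stroma and immune cells contributed RNA to every library, and the position of a piece along the colon is not given in the labels. In such bulk samples fewer cells of a type and less RNA per cell cannot be told apart.

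Fatty acids are oxidised in mitochondria after the carnitine shuttle (Cpt1a, Slc25a20, Cpt2) has carried them across the inner membrane. Each turn of the spiral uses an acyl-CoA dehydrogenase, a hydratase, a hydroxyacyl-CoA dehydrogenase and a thiolase, and electrons leave through the electron transfer flavoprotein (Etfa, Etfb, Etfdh). Peroxisomes shorten long and branched chains with their own enzymes. PPAR alpha binds fatty acids and drives many of these genes in liver and small intestine, above all during fasting, and colonocytes burn short-chain fatty acids from the gut bacteria through the short-chain end of the same pathway. Pcca encodes a subunit of propionyl-CoA carboxylase, which disposes of the 3-carbon end product of odd-chain and branched-chain breakdown.

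The promoters of the members show how unlike their neighbours some of them are. A PPAR response element is a direct repeat of the half-site AGGTCA with any 1 base between the copies. It was searched on both strands, with at most 2 mismatches, in the 250 bases before each start site in RefSeq (GRCm38.p6, an older build than the mm39 of the count tables). Of the 33 members 26 were matched, with 28 promoters. The element was found in 4 of these 28, those of Plin2, Creb3l3, Echs1 and Etfa, and in 3.24% of all 32851 promoters. The perfect half-site AGGTCA, which the full element contains, was found in 6 of the 28 and in 14.0% of all. A match describes letters in a window and not a binding site. The 2 promoters below are shown because they belong to PPAR-linked members and hold the element, in capitals. The first is Plin2 (chr4:86670061-86670309, minus strand), where the element lies on the strand opposite to the gene, 225 to 213 bases before the start. The second is a stretch of the Creb3l3 promoter that holds the element (chr10:81092658-81092806, minus strand), which GENCODE vM21 places in an intron of a longer Creb3l3 transcript, with the element 209 to 197 bases before the RefSeq start.
Plin2: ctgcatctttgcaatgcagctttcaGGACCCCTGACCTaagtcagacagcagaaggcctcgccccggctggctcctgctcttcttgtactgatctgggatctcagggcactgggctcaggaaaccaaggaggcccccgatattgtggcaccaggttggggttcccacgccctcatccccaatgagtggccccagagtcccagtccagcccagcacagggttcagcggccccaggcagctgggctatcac
Creb3l3: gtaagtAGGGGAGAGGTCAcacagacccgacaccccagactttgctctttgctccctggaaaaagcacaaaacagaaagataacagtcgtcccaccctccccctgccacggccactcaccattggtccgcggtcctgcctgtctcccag

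The next stretches are shown because the genes behind them are close relatives whose transcripts were measured at very different levels. Acaa1a and Acaa1b encode peroxisomal thiolases so alike that 22.6% of the 100-base windows of the Acaa1b transcript occur whole in an Acaa1a transcript, so some of their reads cannot be placed with certainty. Their promoters are unlike each other, with no shared run longer than 8 bases between the stretches shown. Acaa1b (chr9:119157094-119157343, minus strand) has 41.6% G and C. Acaa1a (chr9:119341160-119341293, plus strand) has 61.2%. Neither holds the searched element.
Acaa1b: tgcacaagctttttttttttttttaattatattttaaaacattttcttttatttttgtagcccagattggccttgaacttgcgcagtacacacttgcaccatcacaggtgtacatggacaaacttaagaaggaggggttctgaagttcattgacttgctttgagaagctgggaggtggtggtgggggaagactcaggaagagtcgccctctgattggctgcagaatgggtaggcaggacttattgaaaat
Acaa1a: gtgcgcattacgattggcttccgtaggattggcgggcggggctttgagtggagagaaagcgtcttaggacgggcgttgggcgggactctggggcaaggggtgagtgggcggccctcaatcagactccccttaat

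Hadha and Hadhb, the subunits of the mitochondrial trifunctional protein, lie head to head on chromosome 5 with 272 bases between their start sites in RefSeq (GRCm38.p6). The stretch between them that is free of GENCODE vM21 exons (chr5:30155163-30155247, written along Hadhb) is shown because the genes run away from it on either side. Capitals mark bases that fall in the 250-base window of both genes.
Hadhb: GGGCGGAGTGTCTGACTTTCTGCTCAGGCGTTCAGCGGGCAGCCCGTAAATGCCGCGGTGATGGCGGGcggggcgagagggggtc

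Levels below are CPM, counted reads per 1 M reads after TMM scaling within each table. The members together took 0.273 to 0.398% of the counted reads of a chow library (27.9 to 40.4 M reads in all) and 0.301 to 0.427% of those of an HFD library (16.9 to 24.4 M). Chow libraries carried 22486 to 59322 Xist reads and no Ddx3y read, and HFD libraries 0 to 12 and 1458 to 2756, so diet, age, sex and sequencing differ together between the tables. Levels on chow and HFD are therefore set side by side with no test. Pcca checks the labels: it was at 54.0, 39.5, 57.2 and 40.8 CPM in Chow ff (replicates 1 to 4), 27.7, 33.6, 29.2 and 29.5 in Chow Vill, and 58.3, 38.9, 41.1 and 43.6 in Chow Alb. Every Chow Vill colon lay below every other chow colon (Vill against ff log2 -0.67, 95% interval -1.02 to -0.33; exact permutation p = 0.0286). Pcca was nonetheless not called in Vill against ff by edgeR, the test used for the members below, after adjustment over all tested genes. On HFD it was at 29.9, 53.7, 32.5 and 59.5 CPM in ff and 34.0, 37.3, 33.2 and 33.6 in Vill, and the groups overlap, with ff 1 and ff 3 below all 4 Vill colons. The part of Pcca that is deleted is not given in the labels.

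A few libraries stand apart in markers of gut region, and several members stand apart in the same libraries. Slc10a2, the ileal bile acid transporter, was at 522 CPM in HFD ff 3, 449 in HFD ff 1, 268 in Chow Vill 1 and 233 in Chow ff 2, and between 0.984 and 27.0 in the other 16, with Chow Alb 3 at the top of these. The summed level of 20 small intestine markers was 1619 and 2471 CPM in HFD ff 1 and 3 and 784 to 1008 in the other 6 HFD colons. On chow it was 2125 in ff 2, 1723 in Vill 1 and 1573 in Alb 3, and 661 to 1253 in the other 9. The distal colon gene Hoxb13 was at 0 and 0.351 CPM in HFD ff 1 and 3, 0.579 in Chow Vill 1, 7.51 in Chow ff 2 and 18.9 in Chow Alb 3, against 65.7 to 475 in all others. All 20 small intestine markers had reads in HFD ff 1, HFD ff 3, HFD Vill 2 and Chow ff 2. Apoa4 and Defa24 were at 0 in Chow Vill 1, and Apoc3 and Defa24 in Chow Alb 3. The summed level of 12 colon epithelium markers was 37994 CPM in Chow Vill 1 and 35970 in Chow ff 2, and 22942 to 33001 in the other chow colons. It was 18236 in HFD ff 1 and 25713 in HFD ff 3. Whether these libraries held small intestine or colon nearer to it was not tested. For the members these libraries move most, values without them are given as well.

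**Figure D1:**
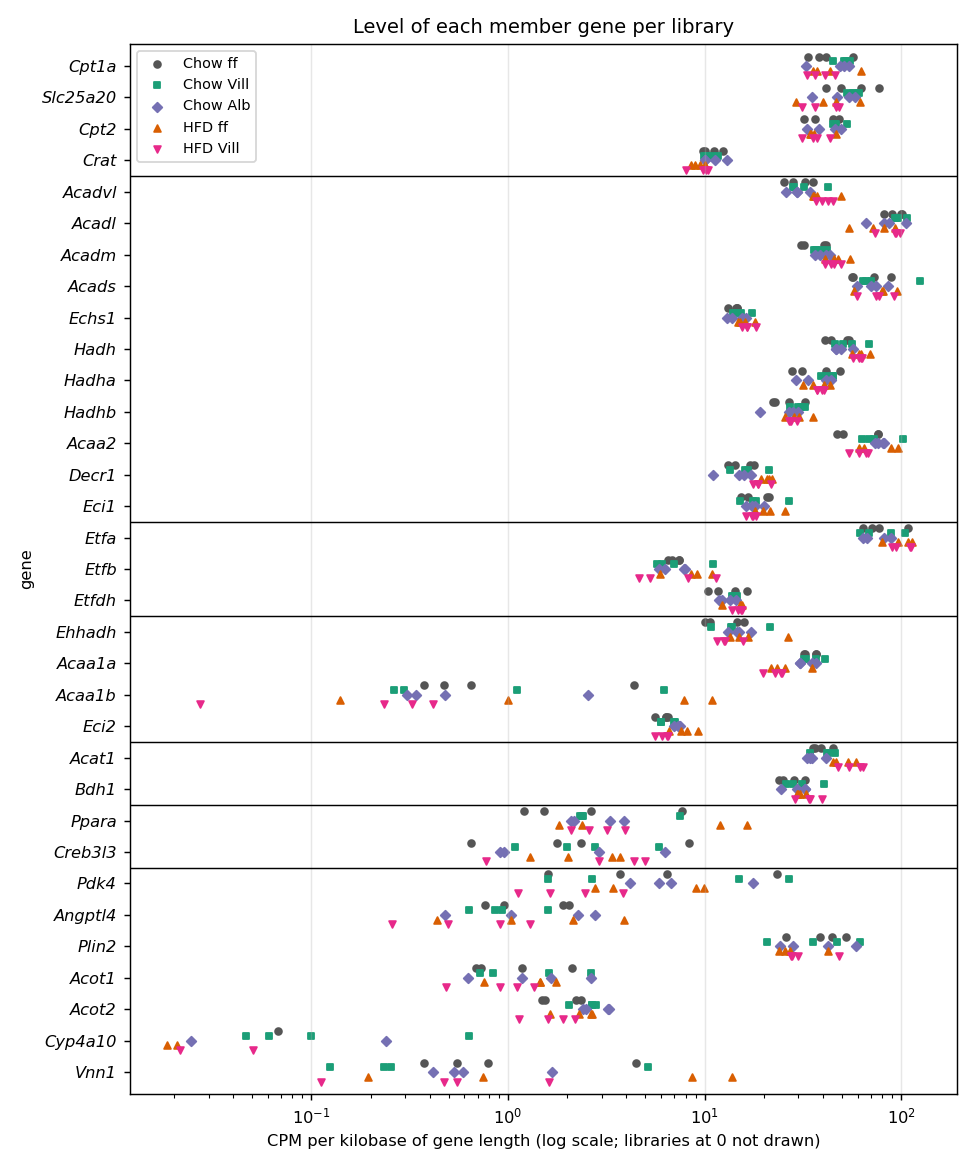
CPM per kilobase of gene length (log axis) of each of the 33 members in every library, coloured by group and ordered by role; libraries at 0 are not drawn. Acadl, Etfa and Acads stand highest; Acaa1b and Vnn1 spread widely between libraries, and Cyp4a10 is near 0.

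Compared per kilobase of the deposited gene length, the mitochondrial enzymes were the most abundant members. That length can exceed the transcript: it is 4414 bases for Acaa1a, whose longest coding transcript in GENCODE vM21 has 1762. The order per kilobase therefore depends on it. By CPM without length, Hadha (median 348 over 20 libraries) and Cpt1a (336) stood above Acadl (186). Acadl, the long-chain acyl-CoA dehydrogenase, had a mean of 88.1 CPM per kilobase over 20 libraries (lowest 54.0, highest 106), Etfa 87.4 (61.6 to 114), Acads, the short-chain dehydrogenase, 75.2 (55.9 to 124) and Acaa2, the mitochondrial thiolase, 71.3 (46.9 to 102). The ranges of these 4 neighbours overlap, so their order is not fixed. Hadh, the hydroxyacyl-CoA dehydrogenase, followed at 55.3 and the carnitine carrier Slc25a20 at 49.6. The thiolase Acat1 (44.9) and the entry enzyme Cpt1a (44.8), Acadm (41.3) and Cpt2 (41.0) were next and overlapped too.

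The regulators and most PPAR targets lay far below the enzymes. Ppara averaged 4.18 CPM per kilobase and Creb3l3, a transcription factor of liver and small intestine that acts with PPAR alpha in fasting, 2.97. Pdk4, the kinase that shuts off pyruvate oxidation when fat is burned, was at 7.5, the acyl-CoA thioesterases Acot2 and Acot1 at 2.26 and 1.3, Vnn1, a pantetheinase, at 2.06 and Angptl4, a secreted inhibitor of lipoprotein lipase, at 1.33. Plin2, which coats lipid droplets, is the exception among the targets at 36.6. Cyp4a10, a fatty acid omega-hydroxylase, was at 0.0643, with 78 reads over all 20 libraries. Its CPM was 0, 0, 0 and 0.142 in Chow ff, 0.129, 0.0986, 0.209 and 1.34 in Chow Vill, 0.0437, 0.039, 0 and 0 in HFD ff, and 0, 0, 0.106 and 0.0453 in HFD Vill. It failed the expression filter, so 32 of 33 members were tested.

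Subunits of a complex were not counted alike. Hadha and Hadhb, the alpha and beta subunits of the trifunctional protein, stood at 38.7 and 28 CPM per kilobase, and their ratio per kilobase ran from 1.23 to 1.66 over the 20 libraries with a median of 1.38. This ratio depends on their deposited gene lengths, 8730 and 6595 bases. Etfb was at 7.51 CPM per kilobase beside 87.4 for its partner Etfa. Etfb overlaps the annotated gene Etfbl, which is listed with 0 reads, so reads that fall in both may have been dropped in counting and this low value is uncertain. In all 14 of 33 members overlap another annotated gene, 11 of them on the opposite strand, and whether the counting used strand is not settled in the labels.

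Acat1 came closest to a split between the tables. Its CPM was 125 to 174 in the 12 chow colons and 169 to 240 in the 8 HFD colons, and 3 libraries lie in the stretch both share. Acaa1a went the other way at 135 to 181 on chow and 87.1 to 155 on HFD. Ranges for the 33 members overlapped between the tables in every case.

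**Figure D2:**
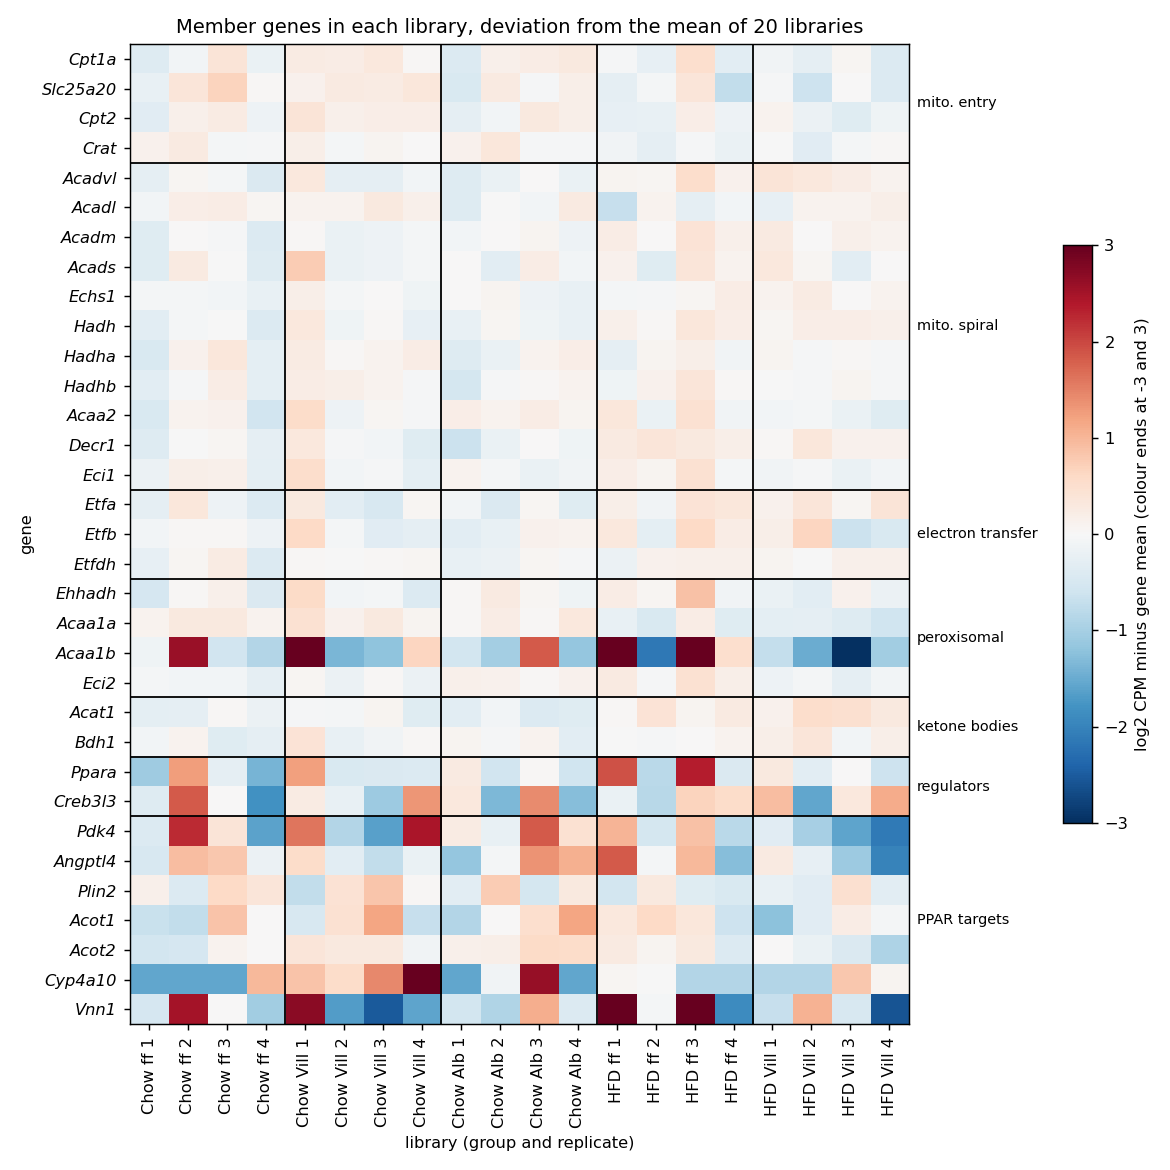
log2 CPM of each member minus its mean over 20 libraries, with genes in rows by role and libraries in columns by group. The mitochondrial rows are pale throughout; Acaa1b, Ppara and Vnn1 are red in Chow ff 2, Chow Vill 1, HFD ff 1 and HFD ff 3, and Pdk4 and Creb3l3 share only part of that pattern.

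The spread between colons of the same group differed widely among the members, in a graded way. The SD of log2 CPM within groups, pooled over the 5 groups, was 0.12 to 0.32 for the 11 genes of the mitochondrial spiral (median 0.21), 0.15 to 0.33 for the entry genes and 0.17 to 0.20 for the ketone body enzymes Acat1 and Bdh1. Over the 17564 genes tested in both tables its median was 0.34. It was lowest for Echs1, the short-chain enoyl-CoA hydratase (0.12), and Eci2, a peroxisomal enoyl-CoA isomerase (0.13). The regulators Ppara (1.00) and Creb3l3 (1.19) and the targets Angptl4 (0.99), Pdk4 (1.32), Acaa1b (1.94) and Vnn1 (1.96) varied far more than the enzymes they are linked to. At least 91.3% of those 17564 genes had a smaller spread than each of these 6. That share is over genes of every level, while Acaa1b and Vnn1 had medians of 0.871 and 1.33 CPM. Of the other targets, Acot2 (0.31) was as steady as the enzymes and Cyp4a10 (1.33) rests on few reads. Plin2 (0.50) and Acot1 (0.74) lay in between, as did Etfb (0.38) of electron transfer.

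Ppara, the receptor itself, was unevenly spread over the libraries. It was at 5.87, 29.4, 10.2 and 4.63 CPM in Chow ff, 28.7, 8.92, 9.17 and 9.27 in Chow Vill, and 14.9, 8.32, 12.7 and 8.06 in Chow Alb. In HFD ff it was at 45.9, 6.98, 63.3 and 9.12 and in HFD Vill at 15.2, 9.92, 12.3 and 8.02. The 4 libraries with the most Slc10a2 had the 4 highest values, 28.7 to 63.3, and the other 16 lay between 4.63 and 15.2.

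Acaa1b, a peroxisomal thiolase like Acaa1a, was high in the same libraries. It was at 1.27, 8.54, 0.926 and 0.738 CPM in Chow ff, 12.2, 0.518, 0.582 and 2.18 in Chow Vill, 0.938, 0.669, 5.01 and 0.600 in Chow Alb, 15.5, 0.273, 21.5 and 1.96 in HFD ff, and 0.817, 0.459, 0.0532 and 0.634 in HFD Vill. The same 4 libraries held 8.54 to 21.5 and the other 16 at most 5.01. Acaa1a, its near copy, varied by a log2 SD of 0.19 within groups, against 1.94 for Acaa1b, whose lowest value rests on 1 read (HFD Vill 3).

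Vnn1 repeated this. It was at 1.33, 10.8, 1.91 and 0.909 CPM in Chow ff, 12.4, 0.567, 0.302 and 0.613 in Chow Vill, 1.28, 1.00, 4.03 and 1.42 in Chow Alb, 20.8, 1.79, 33.1 and 0.468 in HFD ff, and 1.14, 3.90, 1.33 and 0.272 in HFD Vill. The 4 libraries rich in Slc10a2 held 10.8 to 33.1 and the rest at most 4.03.

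**Figure D3:**
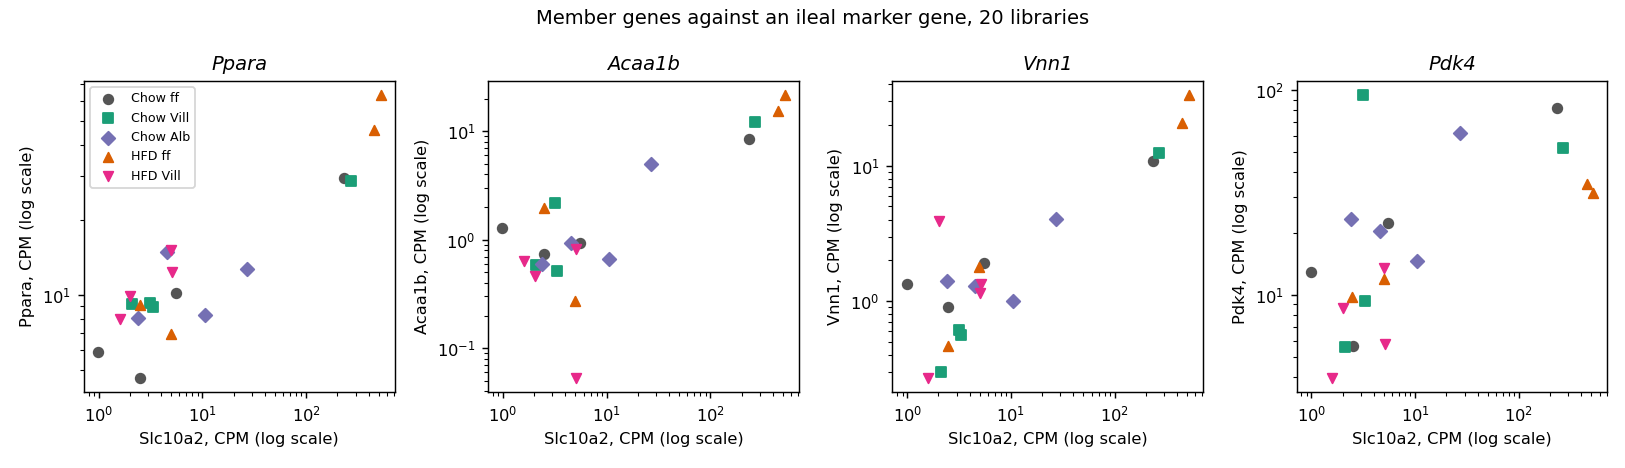
CPM of Ppara, Acaa1b, Vnn1 and Pdk4 (log axes) against the ileal marker Slc10a2 in all 20 libraries, with a symbol for each group. The 4 libraries with Slc10a2 at 233 to 522 CPM hold the highest Ppara, Acaa1b and Vnn1; Pdk4 is highest in Chow Vill 4, where Slc10a2 is at 3.14.

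Creb3l3 was not ordered by Slc10a2 in this way, and Pdk4 was so only in part. Pdk4 was at 13.0, 81.9, 22.5 and 5.62 CPM in Chow ff, 52.4, 9.39, 5.61 and 94.7 in Chow Vill, 20.5, 14.7, 62.1 and 23.7 in Chow Alb, 35, 12, 31.6 and 9.77 in HFD ff, and 13.6, 8.64, 5.75 and 3.94 in HFD Vill. Its highest library was Chow Vill 4, which also had the most Cyp4a10 at 1.34 CPM. The 4 libraries rich in Slc10a2 held 31.6 to 81.9 CPM of Pdk4. Of the other 16 only Chow Vill 4 and Chow Alb 3 lay above 23.7. Creb3l3 was at 5.38, 25.1, 7.09 and 1.96 CPM in Chow ff, 8.39, 6.04, 3.26 and 17.6 in Chow Vill, 8.72, 2.75, 18.9 and 2.88 in Chow Alb, 6.12, 3.90, 11.2 and 10.2 in HFD ff, and 13.2, 2.34, 8.78 and 15.1 in HFD Vill. HFD ff 1, rich in Slc10a2, was below 3 of 4 HFD Vill colons in Creb3l3.

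Plin2 ran the other way on chow. It was at 136, 91.1, 184 and 156 CPM in Chow ff, 73.0, 166, 217 and 125 in Chow Vill, and 98.6, 206, 84.7 and 149 in Chow Alb, so that Chow ff 2, Vill 1 and Alb 3 had the 3 lowest values of 12. In HFD ff it was at 83.7, 148, 95.6 and 89.5 and in HFD Vill at 105, 96.9, 170 and 97.9. Angptl4 was at 2.72, 7.26, 6.71 and 3.38 CPM in Chow ff, 5.62, 3.06, 2.26 and 3.29 in Chow Vill, 1.7, 3.66, 9.83 and 7.99 in Chow Alb, 13.7, 3.67, 7.55 and 1.54 in HFD ff, and 4.58, 3.2, 1.76 and 0.906 in HFD Vill. Adipocytes and muscle also make Angptl4, and its groups overlap in every comparison.

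**Figure D4:**
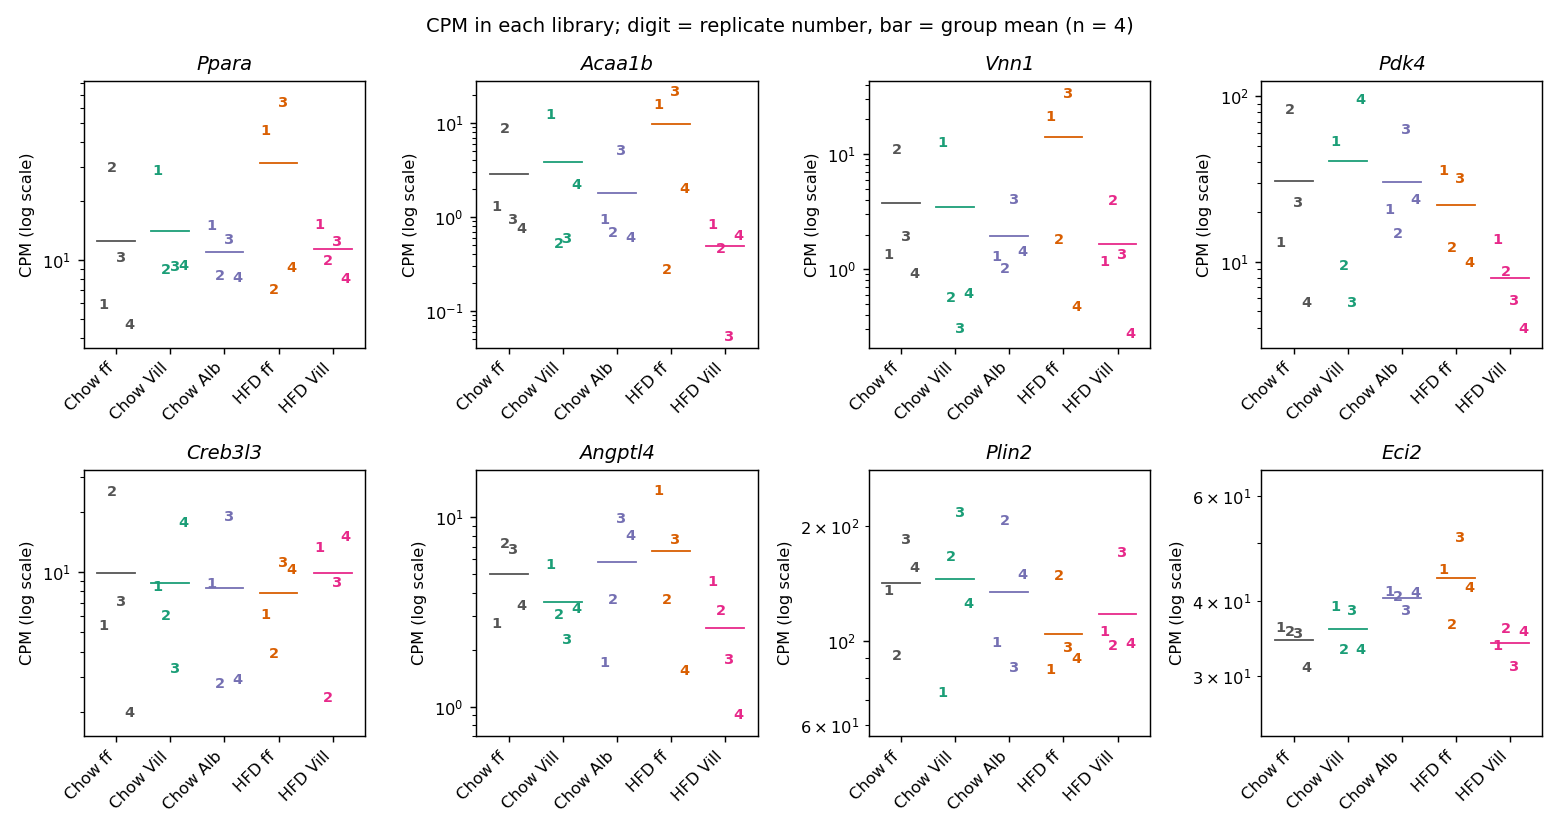
CPM (log axis) of 8 members in each library; digits are replicate numbers and bars are group means (n = 4). In HFD ff, replicates 1 and 3 stand above the rest for Ppara, Acaa1b, Vnn1, Pdk4 and Angptl4, while Eci2 differs little between libraries.

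The first comparison asks whether loss of Pcca in the gut epithelium on chow is met by another expression of these genes in the colon. With edgeR's quasi-likelihood test and Benjamini-Hochberg adjustment, 0 of 32 tested members were called in Chow Vill against Chow ff at an adjusted p under 0.05, where 0.00508% of all 19701 genes were. DESeq2 (0.0153% of all genes) and limma-voom (0.00508% of all genes) called 0 of 32 as well. At an unadjusted p under 0.05 edgeR found 0 of 32 (1.9% of all genes). DESeq2 found 1 and limma-voom 1, where that share was not taken. The groups overlapped in all 32 (they did not overlap for 1.35% of all genes). Members stood 27 higher and 5 lower, where 50.8% of all genes were higher, with a median log2 fold change of 0.11 beside 0.003 for all genes. All 11 genes of the mitochondrial spiral were on the higher side, with log2 fold changes of 0.07 to 0.30 and a median of 0.12, and so were 4 of 4 peroxisomal and 3 of 3 electron transfer genes. None of these differences passed the test. That of Pcca, the deleted gene, did not pass it either. The lack of a call therefore does not show the lack of a difference.

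Of the mitochondrial genes Acaa2 and Cpt1a had the highest fold changes, with Acads and Cpt2 next. Cpt1a, the rate-limiting enzyme of fatty acid entry, was at 255, 316, 436 and 291 CPM in Chow ff and 401, 389, 421 and 342 in Chow Vill. All 4 Vill colons lay above 3 of the 4 ff colons but ff 3 was above them all (388 ± 33.9 against 324 ± 78.6, SD, n = 4), with a log2 fold change of 0.26 (95% interval -0.14 to 0.66; edgeR, adjusted p = 1.00). Acaa2 was at 76.7, 115, 115 and 71.1 CPM in ff and 154, 95.2, 110 and 104 in Vill, and the groups overlap, with a log2 fold change of 0.30 (-0.11 to 0.70; edgeR, adjusted p = 1.00). It was 0.11 without Vill 1, 0.17 without ff 4 and 0.20 without ff 1. Cpt2, the inner-membrane partner of Cpt1a, was at 76.7, 108, 115 and 86.7 CPM in ff and 127, 108, 110 and 111 in Vill (log2 0.24, -0.08 to 0.57), and its log2 fold change was 0.14 without ff 1. Slc25a20, between them in the shuttle, had a log2 fold change of -0.01 (-0.43 to 0.41).

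Acot2, a mitochondrial thioesterase that frees fatty acids from CoA, had the smallest p-value of the members. It was at 3.27, 3.39, 5.18 and 4.88 CPM in Chow ff and 6.17, 5.87, 5.89 and 4.48 in Chow Vill. In Vill 3 of 4 colons lay above every ff colon, with a log2 fold change of 0.42 (-0.03 to 0.87; edgeR, p = 0.0644, adjusted p = 1.00; exact permutation p = 0.0857). Acot1 and Acot2 share 16.5% of the 100-base windows of the Acot1 transcript, so reads of either may be placed on the other. Acot1 itself was at 2.86, 2.70, 8.27 and 4.63 CPM in ff and 3.28, 6.31, 10.4 and 2.84 in Vill.

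The central spiral enzymes differed by less than their spread. Acadl was at 164, 199, 202 and 180 CPM in Chow ff and 188, 186, 213 and 194 in Chow Vill (log2 0.07, -0.22 to 0.35). Acadm, the medium-chain dehydrogenase, was at 125, 163, 158 and 120 CPM against 165, 140, 144 and 153 (0.09, -0.16 to 0.34). Hadha was at 243, 363, 426 and 273 CPM against 393, 340, 361 and 392 (0.19, -0.21 to 0.59). Within Chow ff, colons 1 and 4 were the lower pair for Hadha, Acadm and Cpt2. Etfdh, which passes the electrons on to ubiquinone, was at 87.4, 107, 123 and 77.9 CPM in ff and 107, 103, 106 and 109 in Vill, again with ff 1 and 4 lowest.

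Peroxisomal and ketone body genes were as close. Ehhadh, the peroxisomal bifunctional enzyme, was at 30.1, 43.8, 47.3 and 31.7 CPM in Chow ff and 64.0, 40.7, 41.2 and 32.1 in Chow Vill (log2 0.22, -0.24 to 0.68, and 0.06 without Chow ff 2, Vill 1 and Alb 3). Bdh1, which interconverts the ketone bodies, was at 111, 127, 92.4 and 97.4 CPM against 157, 101, 109 and 121 (0.19, -0.14 to 0.53). Acat1, the mitochondrial acetoacetyl-CoA thiolase, was at 134, 138, 170 and 147 against 160, 158, 174 and 129 (0.08, -0.17 to 0.33). The intervals of the variable genes are much wider, -1.09 to 1.42 for Ppara and -2.60 to 2.39 for Vnn1, and allow sizeable differences in either direction.

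Smooth muscle markers moved beside this lean. Of 10 markers 10 had a log2 fold change below 0 in Chow Vill against Chow ff (median -0.51, none called), with a summed level of 1156 to 7392 CPM in Vill and 4481 to 9197 in ff. Markers of neurons and glia (8 of 8, median -0.26; summed 21.4 to 126 CPM in Vill and 58.7 to 130 in ff) and of fibroblasts (6 of 6, median -0.35; 555 to 913 and 737 to 1068) were lower too, with none called, and their part in the members' values was not tested. With the smooth muscle level as a covariate the members' median was 0.17, with 24 of 32 higher and 0 called. Without Chow ff 2, Vill 1 and Alb 3 it was 0.11, with 26 of 32 higher, and Vnn1 was at -1.49 (SE 0.42; edgeR, adjusted p = 1.00). Single colons moved it more: the median was 0.02 with 18 of 32 higher without Chow Vill 1, 0.04 without ff 4, 0.06 without ff 1 and 0.19 without ff 2.

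Albumin-Cre removes Pcca from hepatocytes and leaves the colon gene in place, so Chow Alb against Chow ff asks whether the colon responds to the loss in the liver. It shares the Chow ff colons with the comparison above. Called were 0 of 32 members by edgeR (0% of all 19701 genes), by limma-voom and by DESeq2 (0.0582% of all genes), with 14 higher and 18 lower (50.1% of all genes were higher) and a median log2 fold change of -0.02. By unadjusted p under 0.05 there were 2 of 32 (4.4% of all genes), Acot2 and Eci2, and in both the groups did not overlap (2.82% of all genes). Acot2 was at 5.31, 5.48, 7.15 and 7.05 CPM in Chow Alb, all above the Chow ff maximum of 5.18 (log2 0.58, 0.13 to 1.03; edgeR, p = 0.0166, adjusted p = 0.990; exact permutation p = 0.0286, the smallest that 4 against 4 can give).

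Eci2 was nearly flat within groups, which let a small difference separate them. It was at 36.0, 35.4, 35.2 and 30.9 CPM in Chow ff, 41.4, 40.6, 38.6 and 41.2 in Chow Alb, and 39.0, 33.1, 38.5 and 33.1 in Chow Vill. Every Alb colon lay above every ff colon, while Vill overlapped with ff and, at its upper end, with Alb (Alb against ff log2 0.24, 0.04 to 0.43; edgeR, adjusted p = 0.990; exact permutation p = 0.0286). The non-coding gene Gm16984 overlaps Eci2 on the opposite strand, with 1941 reads beside 21394 for Eci2. Acaa2 was at 122, 115, 123 and 112 CPM in Alb (log2 0.32, -0.08 to 0.72). The other 29 tested members had unadjusted p-values of 0.222 or more.

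In the same Chow Alb colons Cpt1a was at 252, 374, 391 and 414 CPM, Acadm at 151, 161, 171 and 143, and Hadha at 254, 292, 360 and 384. Etfdh was at 88.9, 92.4, 108 and 101, Ehhadh at 43.5, 51.3, 44.7 and 39.4, and Bdh1 at 125, 114, 126 and 95. All of these overlapped with Chow ff. Acot1 was at 2.47, 4.61, 6.49 and 10.4 CPM in Alb and Cyp4a10 at 0, 0.0515, 0.508 and 0.

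Chow Vill against Chow Alb sets both knockouts side by side, with controls in neither arm. No member of 32 was called by edgeR (0.00508% of all genes) or DESeq2 (0.458% of all genes), and in 0 of 32 did the groups not overlap (4.71% of all genes). At an unadjusted p under 0.05 there were 0 by edgeR (8.87% of all genes), 0 by limma-voom and 1 by DESeq2. That share was taken for edgeR only. Members stood 24 higher and 8 lower in Vill (52.8% of all genes were higher), with a median log2 fold change of 0.12. The smallest p-values belonged to Eci2 (log2 -0.17, -0.36 to 0.02), Acat1 (0.20, -0.06 to 0.45) and Acadl (0.20, -0.09 to 0.48). Acat1 was at 133, 156, 125 and 128 CPM in Alb and Acadl at 132, 174, 164 and 212, and both overlapped with their Vill values above. The lean was not kept without Chow ff 2, Vill 1 and Alb 3, where the median was 0.02 and 17 of 32 were higher, and without Chow Vill 1 alone it was -0.03 with 15 higher. Smooth muscle markers again differed, 10 of 10 lower in Vill (median log2 -0.84), with 4838 to 12700 CPM summed in Alb. Markers of neurons and glia (8 of 8, median -0.93; 74.9 to 189 CPM summed in Alb) and fibroblasts (6 of 6, median -0.43; 667 to 1194) were lower in Vill as well. The part of these cell types in the members' values was not tested beyond the smooth muscle covariate. With it the median was 0.14 and 4 members had an unadjusted p under 0.05. The share of all genes at that p was not taken for this fit, so the count says nothing particular about the members.

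On HFD the question is the same as on chow, gut epithelial loss against littermate controls, under a load of dietary fat. With edgeR, 0 of 32 members were called in HFD Vill against HFD ff (0.00564% of all 17715 genes) and 0 by DESeq2 (0.0113% of all genes), 11 were higher and 21 lower (49.3% of all genes were higher), and the median log2 fold change was -0.11. By unadjusted p under 0.05 there were 5 of 32 with edgeR (3.45% of all genes), 7 with DESeq2 and 2 with limma-voom, where the share of all genes was taken for edgeR only. The 5, all lower in Vill, were Acaa1b, Eci2, Pdk4, Vnn1 and Eci1. All 4 peroxisomal genes were on the lower side with a median of -0.40, and the ketone body enzymes Bdh1 and Acat1 on the higher side, each at 0.16.

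In HFD ff the 2 highest values of each of these 5 genes were those of ff 1 and 3. Acaa1b had means of 0.491 ± 0.326 CPM in Vill and 9.79 ± 10.3 in ff (log2 -4.30, -7.11 to -1.48; edgeR, p = 0.00735, adjusted p = 0.932; exact permutation p = 0.114). Without ff 1 and 3 its log2 fold change was -1.16 (SE 0.95; edgeR, adjusted p = 1.00). For Vnn1 the values were -3.07 (-5.88 to -0.25) with all 8 colons and 0.55 (SE 0.97) without ff 1 and 3, which is a change of sign. For Pdk4 they were -1.47 (-2.64 to -0.30) and -0.45 (SE 0.45). Ppara itself moved from -1.46 (-2.98 to 0.05) to 0.50 (SE 0.29), and Angptl4 from -1.34 (-2.92 to 0.23) to 0.002 (SE 0.66). The fit without these libraries compares 4 colons with 2. Since ff 1 and 3 held the highest ff values of these genes, leaving them out raises the log2 fold changes by construction. The change therefore tests no cause.

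Eci2 and Eci1, the isomerases that ready unsaturated fatty acids for the spiral, differed with much less spread. Eci2 was at 45, 36.5, 51.1 and 42.0 CPM in HFD ff and 33.6, 36.0, 31.0 and 35.6 in HFD Vill, so that every Vill colon lay below every ff colon (34.0 ± 2.29 against 43.6 ± 6.07, SD, n = 4). This was the only member whose groups did not overlap (2.13% of all genes), with a log2 fold change of -0.36 (-0.63 to -0.09; edgeR, p = 0.0143, adjusted p = 0.932; exact permutation p = 0.0286). Without ff 1 and 3 it was -0.20 (SE 0.13). Eci1 was at 46.0, 41.9, 54.6 and 38.4 CPM in ff and 37.2, 38.9, 34.6 and 37.4 in Vill, where Vill 2 lay above ff 4 (log2 -0.29, -0.56 to -0.02; edgeR, adjusted p = 0.932), and -0.11 without ff 1 and 3. For both genes ff 1 and ff 3 were the 2 highest colons.

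Ehhadh was at 49.7, 44.6, 78.7 and 39.9 CPM in HFD ff and 37.2, 34.5, 46.9 and 37.6 in HFD Vill, with ff 3 far above the rest (log2 -0.45, -0.93 to 0.04; edgeR, adjusted p = 0.932; -0.11 without ff 1 and 3). Acaa2 was at 134, 92.6, 146 and 98.1 CPM against 101, 103, 92.9 and 82.2, with ff 1 and 3 above all others (-0.31, -0.68 to 0.05, and -0.01 without them). Acot2 was at 5.81, 5.07, 5.85 and 3.6 CPM against 4.80, 4.18, 3.51 and 2.49 (-0.44, -1.05 to 0.17, and -0.21 without ff 1 and 3). Acadl went the other way, at 108, 187, 144 and 164 CPM in ff and 148, 186, 189 and 198 in Vill, and ff 1 and 3 were the lowest 2 of 8 (log2 0.25, -0.14 to 0.65, and 0.04 without them).

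Other enzymes had intervals that include 0 on HFD. Cpt1a was at 330, 284, 479 and 271 CPM in ff and 313, 279, 351 and 254 in Vill (log2 -0.19, -0.64 to 0.26, and 0.11 without ff 1 and 3). Acadm was at 186, 161, 214 and 178 against 193, 161, 178 and 171 (-0.07, -0.33 to 0.18), and Hadha at 275, 351, 379 and 312 against 355, 326, 344 and 324 (0.03, -0.24 to 0.31). Bdh1 was at 117, 115, 118 and 127 CPM in ff and 133, 153, 112 and 132 in Vill (0.16, -0.09 to 0.40), and Acat1 at 169, 220, 176 and 200 against 180, 240, 231 and 204 (0.16, -0.14 to 0.46). Etfdh was at 92.3, 113, 116 and 115 against 111, 103, 116 and 115. Acot1 was at 5.68, 6.90, 5.73 and 2.95 CPM in ff and 1.91, 3.58, 5.32 and 4.35 in Vill (-0.49, -1.32 to 0.34). In each of these genes the groups overlapped.

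**Figure D5:**
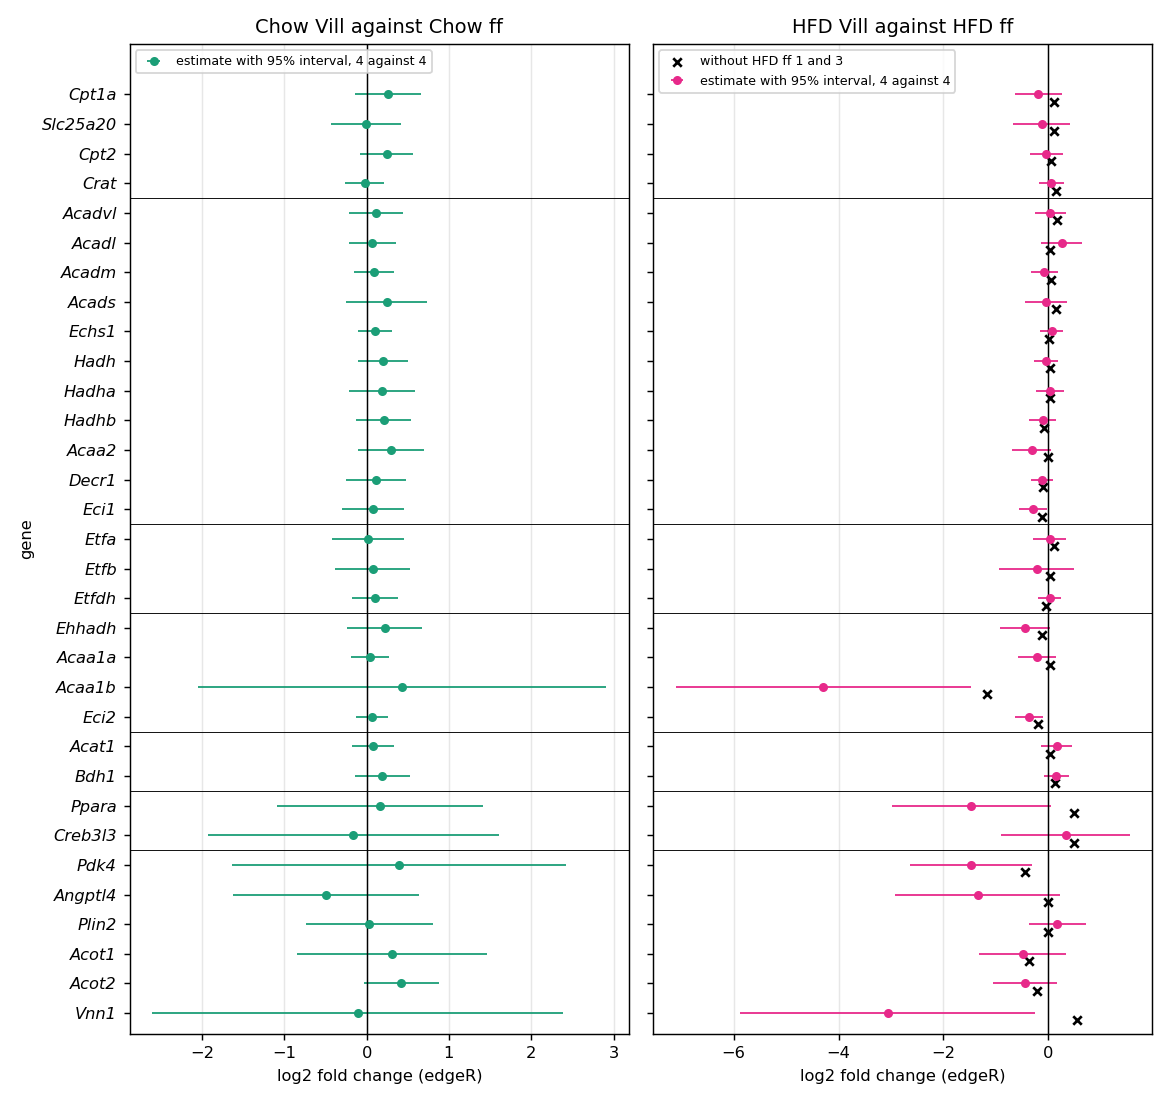
log2 fold change of 32 members with its 95% interval, Chow Vill against Chow ff (left) and HFD Vill against HFD ff (right, on a wider axis); crosses give the HFD values without ff 1 and 3. On chow the mitochondrial spiral lies slightly right of 0 with intervals that include it; on HFD Acaa1b, Vnn1, Pdk4 and Ppara lie far left and move right when ff 1 and 3 are left out.

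Without HFD ff 1 and 3 the median of the 32 members was 0.03, 20 were higher, 0 had an unadjusted p under 0.05 with edgeR, and 19 of 32 kept their direction. Without ff 3 alone the median was 0.002, with 16 higher. With the small intestine marker level as a covariate and all 8 colons the median was also 0.03, with 18 higher and 0 with an unadjusted p under 0.05. For this fit and the fit without HFD ff 1 and 3 the share of all genes at that p was not taken. These counts of 0 therefore say nothing particular about the members. Of the 16 small intestine markers tested, 13 were lower in HFD Vill (median log2 -0.52), as were 8 of 8 adipocyte markers (median -1.04, summed 94.9 to 181 CPM in Vill and 139 to 177 in ff). Adipoq and Plin1, which define adipocytes, were at 0 in HFD Vill 3, and the part of fat tissue in the members' values was not tested. Of the other markers, those of neurons and glia were lower in HFD Vill (8 of 8, median -0.80; summed 12.0 to 93.5 CPM in Vill and 50.8 to 171 in ff) and 10 of 12 of colon epithelium were higher (median 0.28; 18564 to 24229 and 18236 to 25713). None of these was called, and their part was not tested either.

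The Vill effect was compared between diets as a difference of differences, with diet, age, sex and sequencing changing together. No member of 32 was called by edgeR (0% of all 19516 genes), DESeq2 or limma-voom, and 4 had an unadjusted p under 0.05 with edgeR (2.54% of all genes). These were Eci2 (log2 -0.42, -0.74 to -0.09), Acaa1b (-4.72, -8.60 to -0.83), Acot2 (-0.86, -1.58 to -0.14) and Acaa2 (-0.60, -1.20 to -0.005), each with an edgeR adjusted p of 1.00 and each more negative on HFD. Over all members 26 of 32 were more negative on HFD (48.1% of all genes were above 0), with a median of -0.26. In the fit without HFD ff 1 and 3, 0 members had an unadjusted p under 0.05, and its share of all genes was not taken. That fit gave a median of -0.10, and leaving out Chow Vill 1 alone gave -0.13. Without HFD ff 1 and 3, Chow ff 2 and Chow Vill 1, the median was -0.12. There Eci2 was at -0.27 (SE 0.17), Acaa1b at -1.33 (SE 1.21), Acot2 at -0.53 (SE 0.41) and Acaa2 at -0.27 (SE 0.24). Cpt1a, on the higher side on chow and on the lower side on HFD, differed by -0.44 (-1.01 to 0.13).

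Other genes of the same pathways were taken from a further list of 67. None was called in any comparison. Tested were 60 on chow, where 34 were higher in Vill and 36 in Alb than in ff and 35 higher in Vill than in Alb, and 57 on HFD, where 17 were higher in Vill. In Chow Vill against ff the smallest p-values were those of Ppargc1b, a coactivator of mitochondrial genes (log2 0.35, -0.03 to 0.73), the fatty acid binding protein Fabp1 (0.828 ± 0.894 against 0.230 ± 0.293) and the acyl-CoA synthetase Acsl3 (260 ± 18.3 against 226 ± 26.2). In Chow Alb against ff they were Acsl5 (78.7 ± 7.44 against 92.4 ± 6.19), Acad10 and again Acsl3. Bdh2, a cytosolic relative of Bdh1, led Chow Vill against Alb at 0.534 ± 0.228 against 1.76 ± 0.857 CPM (log2 -1.71; edgeR, adjusted p = 0.515). On HFD the fatty acid transporter Slc27a1 (36.9 ± 2.08 against 45.3 ± 5.44 CPM) and the peroxisomal reductase Decr2 (52.4 ± 2.20 against 63.0 ± 9.57) had the smallest p-values, both with an edgeR adjusted p of 0.932.

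The authors' deposited tables list all 33 members in their 4 comparisons and call 0 of them. They give no p-value for Vnn1 in the chow comparisons or for Acaa1b in Chow Alb against ff. Few genes of any kind are called there, 4 of 31184 on HFD and 7 of 31963 in Chow Vill against ff. In Chow Alb against ff they call 5 of 32009 genes, and in Chow Vill against Alb 67 of 32073. An unadjusted p under 0.05 is given by the authors' deposited tables for 7 members on HFD, 1 in Chow Vill against ff, 2 in Chow Alb against ff and 0 in Chow Vill against Alb. The 1 in Chow Vill against ff is Cyp4a10, which failed the expression filter here. The share of all genes under that p was not taken for the authors' values, so these counts say nothing particular about the members. For Acaa1b on HFD the authors' deposited table gives a log2 fold change of -4.31 with an adjusted p of 0.645, and for Eci2 it gives -0.36.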

How the data were processed

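Each library was poly-A RNA of 1 colon, per the labels. The genome build was mm39, per the submitters' processing notes, which list the tools edgeR 3.22.5, DESeq2 1.20.0, featureCounts 1.5.0-p3 and HISAT2 2.0.5 with no role for any. The authors deposited raw read counts per gene, which were used here, and 28 per-sample columns of FPKM and normalized signal, which were not. The authors also deposited log2 fold changes and p-values per comparison, and gene lengths as other values. Counts were tested with edgeR 4.0.16 (R 4.3.3; TMM, default filter, quasi-likelihood F test): 12 chow colons in 1 fit (19701 genes), 8 HFD colons (17715), and 16 ff and Vill colons for the difference between diets (19516). Adjusted p is Benjamini-Hochberg's, over every gene in the fit. Called means an adjusted p under 0.05. Shares of all genes at an unadjusted p were taken for the main edgeR fits only. CPM per sample were scaled within each table, so levels set across tables are not on 1 scale. DESeq2 1.42.0, limma-voom (limma 3.58.1), other scalings, filters, covariates and left-out colons were alternatives. The fit without Chow ff 2, Vill 1 and Alb 3, that without 4 colons across diets, and the distal colon covariate were chosen after seeing the data. No label sets HFD ff 1 and 3 apart, so leaving them out also rests on expression in these data. The 70 splits of 4 against 4 give the exact permutation p. The test was tried on simulated data.

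The members and all gene lists were chosen with earlier results of these data known. Values in every sample are given for members called in any comparison, members with an unadjusted p under 0.05 in the gut knockout comparisons or the difference between diets, the 3 of smallest p in each comparison, and a written set of representatives of each role. Other pathway genes are named when called, or else the 3 of smallest p. A result that this rule would name is not reported here. Comparisons among the chow groups share colons. The labels do not say whether the 4 colons of a group came from separate litters, so p-values measure the spread between these colons. Protein sequences were not used here.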

Additional observations from a re-analysis of the deposited data

Results flagged for a closer look

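In 17 of 165 groups of 4 colons (33 members in 5 groups), 1 colon stood far from the other 3 by Dixon's criterion, over 11 genes. Chance alone flags about 1 in 20 groups of independent, normally spread values. CPM of some members is skewed or near 0 and the same colons recur, so that rate is only a rough guide. Chow Vill 1 stood above its group in Acaa1b (12.2 CPM), Vnn1 (12.4), Ppara (28.7) and Acads (282). Chow ff 2 did so in Acaa1b (8.54) and Vnn1 (10.8), and Chow Alb 3 in Acaa1b (5.01), Vnn1 (4.03) and Cyp4a10 (0.508). HFD ff 3 was highest in Acadvl (132) and Cpt2 (111), and HFD ff 1 lowest in Etfdh (92.3). Chow ff 4 was lowest in Echs1 (109) and Eci2 (30.9) and highest in Cyp4a10 (0.142). Chow Vill 4 was highest in Cyp4a10 (1.34) and HFD Vill 3 in Plin2 (170). The Cyp4a10 values rest on few reads.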

How the results depend on the processing

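No member was called in any comparison under any alternative run. Of the members named for their p-values, Vnn1 on HFD changed sign, from -3.07 to 0.55 without HFD ff 1 and 3. In the same fit 19 of 32 members kept their direction; Ppara (-1.46 to 0.50), Angptl4 (-1.34 to 0.002) and the members' median (-0.11 to 0.03) were among the values that did not. The cause was not tested. Over the alternatives other than leaving out single colons, 25 to 32 of 32 members kept their direction in Chow Vill against ff, 26 to 32 in Alb against ff, 23 to 32 in Vill against Alb, 19 to 32 on HFD and 21 to 32 for the difference between diets. Leaving out single colons moved the members' median log2 fold change between 0.02 and 0.19, -0.06 and 0.12, -0.03 and 0.15, -0.14 and 0.002, and -0.33 and -0.13, in the same order, with 0 called in each fit. The medians of Alb against ff, Vill against Alb and HFD thus crossed 0.

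Replicate numbers were checked for pairing. Deviations from group means over the genes that passed the filter correlated at -0.55 to 0.45 between same-numbered colons. In each pair of groups 1 of 4 numbers correlated best with its own. Colons of unlike number reached 0.599 (Chow ff 2 with Chow Vill 1, both high in Slc10a2). Such differences can hide a weaker pairing, so the check shows none but cannot exclude it. With the replicate number as a block 0 members were called in every comparison, and the medians were 0.13, -0.004, 0.12, -0.10 and -0.23. Depth limits Cyp4a10, with 78 reads in all, and the low counts of Acaa1b and Vnn1. Colons of a group differed by far more than counting noise (chi-square per gene of 34.6 or more in 30 pairs), so none was counted as a repeat.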
